A study of Mus musculus with 8 samples.

Results

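The 47 genes described here were chosen by symbol, and most encode proteins of the core spliceosome, measured here in mouse embryonic stem cells. Lsm10 and Lsm11 of the U7 particle, Lsm1 of a cytoplasmic ring and Lsm12 share the name pattern without being core spliceosome proteins. The members are the genes of the deposited table whose symbol starts with Snrp, Sf3a, Sf3b, Prpf, U2af or Lsm followed by a digit, with a mean count of at least 10. Snrpn, Lsm14a and Lsm14b were left out by name, with mean counts of 2483, 1897 and 666. They are 47 of 17597 genes. All genes of the name pattern reached the minimum, so none lay just outside it, and the lowest member was Lsm11 with a mean count of 262.

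The libraries were made from total RNA of embryonic stem cells of Cast x 129S background, in which a TetOn promoter replaced the Xist promoter on 1 allele. In all cells METTL3, the catalytic subunit of the enzyme that writes N6-methyladenosine (m6A) on RNA, carried the FKBP12F36V degron tag, through which the small molecule dTAG-13 brings about its destruction. The 8 libraries formed 2 groups of 4, cells given dTAG-13 for 26 hours and untreated cells, and no cells received doxycycline. Each group held 2 libraries of clone C3 and 2 of clone H5, each line being a single clone. The cells were grown on mitotically inactive fibroblast feeders. The labels call the molecule total RNA, while their extraction text describes RNA from chromatin.

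The deposited table gives 1 mean count per gene over all libraries, treated and untreated together. The other columns hold the authors' own comparison of both groups and were not used. A difference between dTAG-13 and untreated cells, a spread between replicates and a test could therefore not be given here. Each value below is the authors' mean, or a ratio of such means, and has no error.

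Summed over genes, the mean counts came to 14573411 reads, with a further 1719306 in 1097 subfamilies of transposable elements. The stem cell markers were abundant, with all 8 of their list measured at mean counts from 1415 for Klf4 to 11934 for Pou5f1. Among 10 feeder markers the collagen genes of fibroblasts were low, with mean counts of 19.8 for Col1a1, 13.8 for Col1a2 and 8.38 for Col3a1, and so were Lum at 1.45 and Postn at 0.768. Fn1, Sparc and Vim, which are not particular to fibroblasts, had mean counts of 4941, 3052 and 2073, and Thy1 and Acta2 had 116 and 103.

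The spliceosome removes introns from pre-mRNA. It is built from small nuclear RNAs, each packed with proteins into a particle (snRNP). U1 recognises the 5′ splice site and U2 the branch point, and the tri-snRNP of U4, U6 and U5 then joins them to form the catalytic centre.

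The members were well expressed. Together they held 118391 of the mean counts, 0.812% of the total over genes. All 47 had a mean count of at least 100, 35 reached 1000 and 5 reached 5000. Those 5, Sf3b3, Prpf8, Sf3b1, U2af2 and Sf3b2, held 38.3% of the members' sum. The median member had a mean count of 1656, while the median was 376 over the 13465 genes that had a known length and reached a mean of 10.

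A mean count grows with the length of the transcript, so the mean counts and ranks by mean count mix abundance with length, and levels of genes were compared per kb. The mean count per kb of a gene's summed exons is called its level here. The median level of the members was 498 counts per kb, against 81.2 over the same 13465 genes. Where a level is said below to lie above a percentage of genes, those 13465 genes are meant. Of the 47 members, 45 lay above that gene median and 18 were in the top 10% of genes by level. Lsm11 and Prpf40b were the exceptions below the median.

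**Figure D1:**
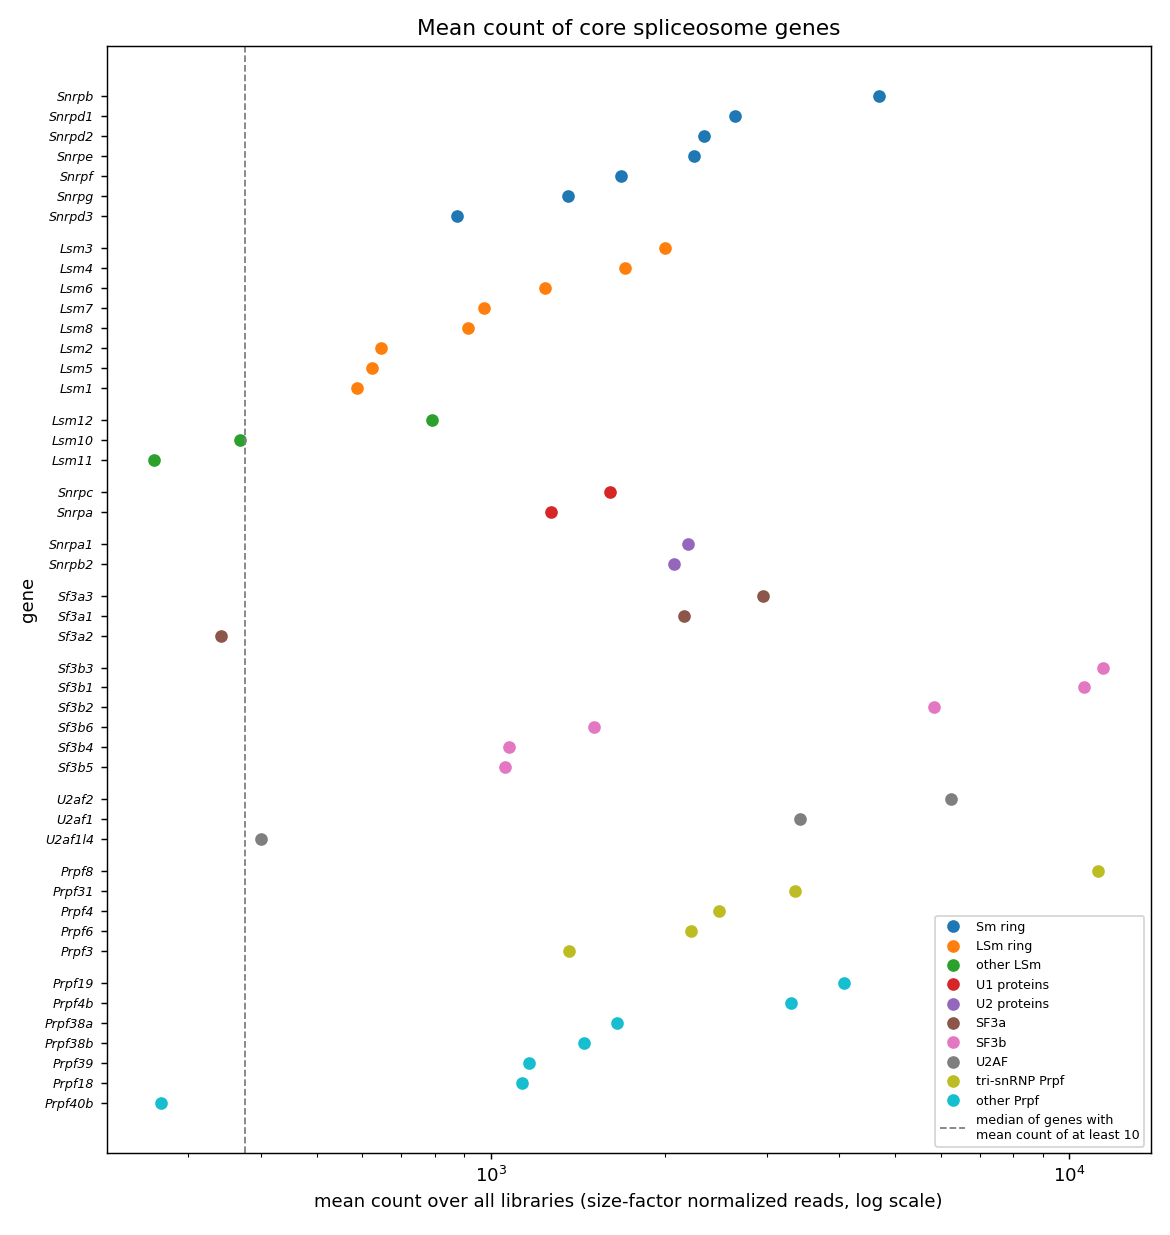
Mean count of 46 of the 47 genes over all libraries, on a log axis in size-factor normalized reads, with 1 point per gene, grouped and coloured by role. The dashed line is the median, 376, of the 13465 genes that reached a mean of 10 and had a known length. The points run from 262 for Lsm11 to 11447 for Sf3b3, and Lsm11, Prpf40b, Sf3a2 and Lsm10 lie left of the line.

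The Sm proteins form a ring around the U1, U2, U4 and U5 RNAs, with 1 copy of each protein per ring. Their 7 genes had a median level of 1288 counts per kb. Snrpb lies on chromosome 2 (130171414 to 130179403, GRCm38) and encodes the SmB proteins. Its mean count was 4682, and it had the highest level of all members, 2370 counts per kb of summed exons, above 98.0% of genes. Snrpf followed with a mean count of 1682 and a level of 1953 counts per kb. For Snrpe, the mean count was 2247 and the level 1638 counts per kb. These 3 genes encode the proteins SmB, SmF and SmE. The level of Snrpd1 (SmD1) was 1288 counts per kb at a mean count of 2643. Snrpd2 (SmD2) and Snrpg (SmG) had levels of 894 and 865 counts per kb, at mean counts of 2341 and 1357.

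Snrpd3 was the low end of the ring. It encodes SmD3 and lies on chromosome 10 (75517551 to 75537381). The mean count was 876 and the level 254 counts per kb, with that of Snrpb 9.31 times as high. It was also the lowest of the 7 per kb of 1 representative transcript, at 289, and per kb of coding sequence, at 2317. Each length divides the same mean count, which includes reads outside the coding sequence. Values per kb of coding sequence therefore also rise with the untranslated part of the transcript. The same order under all 3 lengths is thus no independent check. The top of the ring did change, with Snrpe in place of Snrpb at 4467 counts per kb of transcript and 8140 per kb of coding sequence. The highest level exceeded the lowest 15.5-fold per kb of transcript and 3.51-fold per kb of coding sequence. Of 21 pairs of Sm genes, 16 had the same order under all 3 lengths.

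The LSm proteins resemble the Sm proteins and form a pair of related rings. The ring with Lsm8 binds the U6 RNA in the nucleus, and the ring with Lsm1 in its place takes part in the decay of mRNA in the cytoplasm. The 8 genes Lsm1 to Lsm8 had a median level of 457 counts per kb of summed exons, beside 1288 for the Sm genes. The medians were 1537 and 1953 per kb of transcript and 3099 and 6612 per kb of coding sequence, so the LSm median was the lower under each length, by an amount that depended on it. Lsm4 had the highest level, 1645 counts per kb of summed exons at a mean count of 1707, above 96.9% of genes, but Lsm3 was highest per kb of transcript and of coding sequence. Lsm3 had a mean count of 2001 and a level of 727 counts per kb. Both belong to either ring, as do Lsm5, Lsm7 and Lsm6, whose levels were 786, 609 and 305 counts per kb at mean counts of 622, 975 and 1242.

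Lsm1 and Lsm8, which tell the rings apart, stood close together at the low end with Lsm2. The levels were 217 counts per kb for Lsm8, 205 for Lsm2 and 190 for Lsm1, at mean counts of 913, 646 and 587. That nearness rested on the length. The level of Lsm8 was 1.14 times that of Lsm1 per kb of summed exons, 2.07 times per kb of coding sequence and 8.22 times per kb of transcript. Lsm1 was the lowest of the 8 genes under each of the 3 lengths.

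Lsm10 and Lsm11 belong to the U7 particle, which processes the ends of histone mRNAs and does not splice. They had mean counts of 368 and 262 and levels of 391 and 40.6 counts per kb. Lsm11 had the lowest level of all 47 members per kb of summed exons, above 35.8% of genes. It was also lowest per kb of transcript, while Prpf40b was lowest per kb of coding sequence. Lsm12 had a mean count of 792 and a level of 332 counts per kb.

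U1 and U2 carry proteins of their own beside the Sm ring. Snrpa encodes the A protein of U1, which binds a stem-loop of the U1 RNA, and had a mean count of 1272 and a level of 429 counts per kb. Snrpc encodes the C protein of U1, which helps to recognise the 5′ splice site, and had a mean count of 1610 and a level of 247 counts per kb. Their order turned with the length, the level of Snrpa being 1.74 times that of Snrpc per kb of summed exons, 0.511 times per kb of transcript and 0.501 times per kb of coding sequence. Snrpa1 and Snrpb2 encode the A′ and B″ proteins of U2, which bind the U2 RNA as a pair. Their mean counts were 2193 and 2072 and their levels 691 and 725 counts per kb. The level of Snrpa1 was 0.953 times that of Snrpb2 per kb of summed exons and 1.75 times per kb of transcript.

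SF3a and SF3b are the protein complexes that fix U2 on the branch point. SF3b held the member with the most reads, Sf3b3, with a mean count of 11447 and rank 121 among all genes by mean count. Sf3b1, which grips the branch point helix, had a mean count of 10608, and Sf3b2 had 5829. Their levels were 1048 counts per kb for Sf3b3, 933 for Sf3b1 and 855 for Sf3b2, all above 92.8% of genes. Sf3b6, which contacts the branch point adenosine, had a mean count of 1509 and a level of 529 counts per kb. The other 2 genes of the complex were Sf3b4, with a mean count of 1076 and a level of 498, and Sf3b5, with a mean count of 1060 and a level of 276 counts per kb.

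The order within SF3b depended on the length, and 6 of its 15 pairs kept theirs under all 3. Sf3b5, a gene of 1 exon, was lowest per kb of summed exons and per kb of transcript and highest per kb of coding sequence, at 4108. Its exon has 3841 bases, of which 258 are coding.

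SF3a was unequal under every length. Sf3a3 had a mean count of 2957 and a level of 1062 counts per kb. Sf3a1 had a mean count of 2158 and a level of 351 counts per kb. Sf3a2 had a mean count of 342 and a level of 129 counts per kb, above 60.6% of genes. The proteins form 1 complex, and the 3 mRNA levels kept the same order under each length. The level of Sf3a3 was 8.24 times that of Sf3a2 per kb of summed exons, 10.5 times per kb of transcript and 8.36 times per kb of coding sequence. Sf3a2 shares 429 exon bases with Plekhj1 on the opposite strand, and whether the counting used strand is uncertain.

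U2AF marks the 3′ splice site, where U2af2 binds the pyrimidine tract and U2af1 the AG that follows. U2af2 had a mean count of 6248 and a level of 1519 counts per kb, above 96.5% of genes. U2af1 had a mean count of 3426 and a level of 1319 counts per kb, above 95.8% of genes. The level of U2af2 was 1.15 times that of U2af1 per kb of summed exons but 0.914 times per kb of transcript. The related U2af1l4 had a mean count of 400 and a level of 242 counts per kb. The level of U2af1 was 5.45 times that of U2af1l4 per kb of summed exons, 7.23 times per kb of transcript and 7.88 times per kb of coding sequence. Both genes share sequence with other loci. Of the 1656 summed exon bases of U2af1l4, 1086 are shared with Gm49396 on the same strand. U2af1 has 2 annotated pseudogenes of near-identical sequence.

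The Prpf genes of the tri-snRNP encode the scaffold of the catalytic centre and proteins that hold U4 to U6. Prpf8, on chromosome 11 (75486816 to 75509449), encodes the large U5 protein at the catalytic centre. Its mean count was 11212 and its level 1503 counts per kb, above 96.4% of genes. It was highest of the 5 per kb of summed exons and of transcript, and Prpf31 was highest per kb of coding sequence. Prpf31, which binds the U4 RNA, had a mean count of 3352 and a level of 616 counts per kb. Prpf6, which bridges U5 with U4 and U6, had a mean count of 2215 and a level of 574 counts per kb. Prpf4 had a mean count of 2485 and a level of 438 counts per kb. Prpf3, its partner on U4 and U6, was lowest under each length, with a mean count of 1367 and a level of 242 counts per kb.

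The other 8 Prpf genes act at different steps, and their median level was 263 counts per kb. Prpf19, a ubiquitin ligase that acts in activation of the spliceosome, had a mean count of 4080 and a level of 561 counts per kb. The kinase Prpf4b had a mean count of 3310 and a level of 393 counts per kb. Prpf18 acts in the second catalytic step, and its mean count was 1131 and its level 213 counts per kb. For Prpf39, a U1-associated protein, the mean count was 1163 and the level 97.2 counts per kb.

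Prpf38 has an a and a b form. Prpf38a and Prpf38b had mean counts of 1656 and 1449 and levels of 313 and 209 counts per kb, and the ratio of the levels was 1.50 per kb of summed exons, 2.28 per kb of transcript and 1.99 per kb of coding sequence. Prpf40b was the lowest of the 8 genes under each length, with a mean count of 269 and a level of 54.4 counts per kb.

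**Figure D2:**
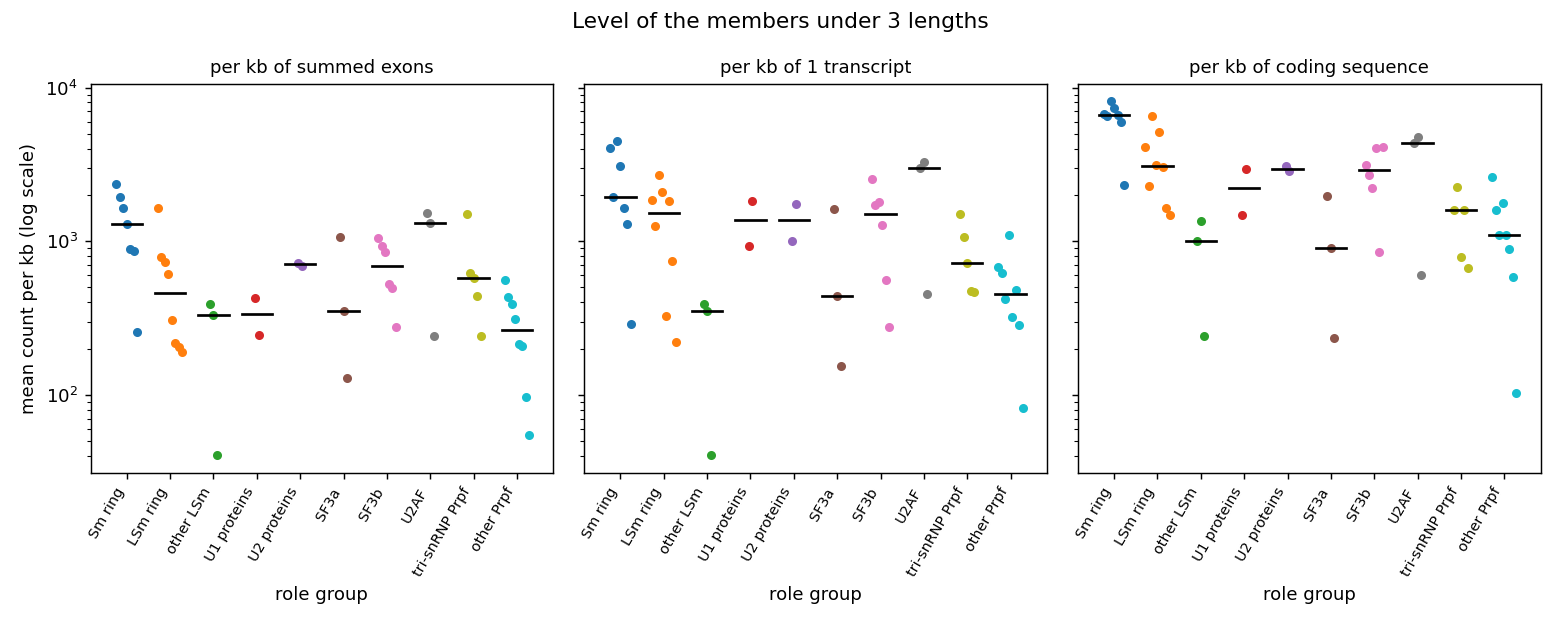
Mean count per kb of each member on a log axis, by role group, with the length taken as the summed exons of the gene, as 1 transcript or as the coding sequence. Points are genes and bars are group medians. The Sm ring median is 1288 per kb of summed exons, 1953 per kb of transcript and 6612 per kb of coding sequence, and Snrpd3 is the lowest Sm gene in each panel.

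The rest of the pathway was read from lists of genes outside the name pattern. Other snRNP and spliceosome proteins were listed by 35 symbols, of which 34 had a level, with a median of 548 counts per kb. They ran from 52.3 for Cdc40 to 1555 for Nhp2l1, which binds the U4 RNA. The 9 genes of the minor spliceosome, which removes a rare class of introns, had a median level of 145 counts per kb, from 59.1 for Zcrb1 to 346 for Snrnp25. The 11 genes that methylate Sm proteins or load them onto the RNA had a median level of 676 counts per kb, from 70.6 for Gemin8 to 1369 for Strap.

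Further families were measured on the same scale. The median level was 1201 counts per kb for 11 SR proteins, which guide splice site choice, with Srsf1 highest at 2005 and Srsf12 lowest at 6.98. It was 1203 counts per kb for 31 proteasome subunits, from 442 for Psmd11 to 3760 for Psmc1. For 85 cytosolic ribosomal proteins it was 5035 counts per kb, from 17.1 for Rpl3l to 18784 for Rps3a1. The Sm ring and U2AF, with medians of 1288 and 1319 counts per kb, were the member groups nearest to the SR and proteasome lists. The lists outside the members were compared only per kb of summed exons, and the other lengths were not tried for them. These values describe medians over genes, and no test was run on their differences.

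**Figure D3:**
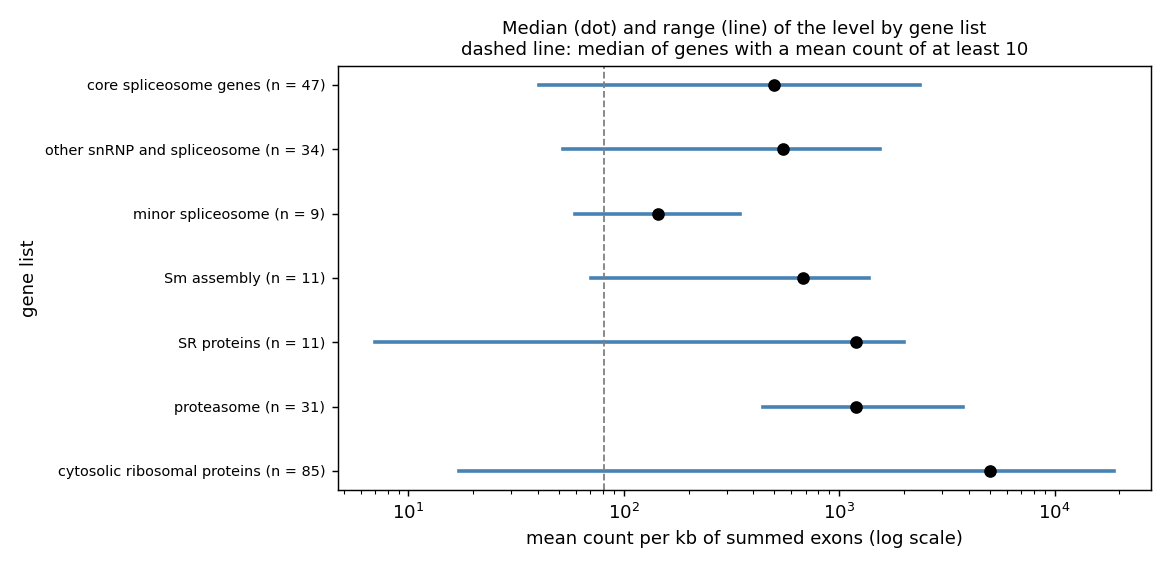
Range (line) and median (dot) of the mean count per kb of summed exons in 7 gene lists, on a log axis. The dashed line is the median, 81.2, of the 13465 genes that reached a mean of 10 and had a known length. The core spliceosome genes have a median of 498, beside 548 for other spliceosome proteins, 145 for the minor spliceosome and 5035 for ribosomal proteins.

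The genes were compact at the median but not in every group. Their median coding length was 765 bases, against 1422 over 13038 coding genes with a level, and their median exon number 7 against 9. SF3a, SF3b, tri-snRNP Prpf and other Prpf had longer medians than coding genes, at 1503, 1953, 2049 and 1810.5 coding bases. Their median exon numbers were 16, 13.5, 16 and 14.5. The medians of the Sm, LSm, other LSm, U1, U2 and U2AF groups were lower than those of coding genes. The highest of these were 720 coding bases and 8 exons, for U2. The median member held 4.65 exons per kb of transcript, against 3.50. The GC content of their transcripts was 49.0%, against 50.7%. The letters GGAC, the core of the sequence that METTL3 methylates, occurred 4.04 times per kb of transcript in the median member, against 4.24. Lsm7 held the most, 12.8 per kb, and Snrpe alone of the members held none. The letters describe the transcript, and m6A was not measured in these libraries.

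The members lie on 15 chromosomes, with 6 on chromosome 7, 5 each on chromosomes 2 and 10, and none on the X chromosome. The spread of all genes over the chromosomes was not computed for comparison. Of the 47, 16 (34.0%) start within 1000 bases of the start of a coding gene on the opposite strand, as do 15.6% of 13032 coding genes. The closest pairs were Lsm1 with Bag4 at 1 base, Lsm3 with Xpc at 40 bases, Prpf31 with Tfpt at 56, Sf3a1 with Ccdc157 at 57 and Lsm7 with Sppl2b at 66.

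Promoters of 37 members were read from RefSeq (GRCm38.p6), from 250 bases before to 50 bases after each start. Both strands were searched, and a gene with several starts was counted if any of them held the motif. The letters CCGGAAG, bound by ETS family factors, were found in 15 of 37 members (40.5%), in 19.5% of 9880 coding genes with a level and in 8.86% of all 32851 promoters. The TATA box letters TATAAA were in 2 members (5.41%), in 8.52% of coding genes and in 13.6% of all promoters. For the letters CCAAT the shares were 43.2%, 43.1% and 37.4%, and for the GC box letters GGGCGG they were 64.9%, 70.1% and 35.7%. The NRF1 motif, a palindrome of 10 letters, was in 0 of 37 members, in 2.35% of coding genes and in 0.971% of all promoters. The YY1 motif, of 11 letters, was in 1 member (2.70%), in 1.73% of coding genes and in 0.633% of all promoters. Matches of different motifs can overlap, and binding was not measured.

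Among genes with a promoter entry, all 3 SF3a genes held the letters CCGGAAG, and so did 3 of 4 SF3b genes. The same was true of 2 of 5 tri-snRNP Prpf genes and 2 of 5 Sm genes. The letters were in 2 of 6 other Prpf genes, 1 of 6 LSm ring genes and 0 of 2 other LSm genes. Of the U1 and U2 genes, 1 of 2 in each group held the letters. Neither U2af1 nor U2af1l4 held them, and U2af2 had no promoter entry. Of 19 matches, 12 began in the 100 bases up to the start. The windows that follow hold 10 bases on either side of a match, written 5′ to 3′ along the strand that carries the letters, which are in capitals. They show 1 match each for the SF3a genes, for Sf3b2 and Sf3b6 of SF3b, for the tri-snRNP gene Prpf3 and for Snrpe and Snrpg of the Sm ring, since of the motifs searched this one differed most in percentage points between members and coding genes.
Sf3a1, chr11:4160337-4160363, plus strand: gagggcgggaCCGGAAGtgctcccgcg
Sf3a2, chr10:80798649-80798675, plus strand: gcctttgctcCCGGAAGggatcgcttc
Sf3a3, chr4:124714761-124714787, minus strand: tccgcgtgtcCCGGAAGtgtcttgggg
Sf3b2, chr19:5295452-5295478, minus strand: gattacgcaaCCGGAAGtttctggaag
Sf3b6, chr12:4817528-4817554, plus strand: ggtccgcaatCCGGAAGcgttctggag
Prpf3, chr3:95855794-95855820, minus strand: cgtagggcaaCCGGAAGgtttccggtt
Snrpe, chr1:133610258-133610284, minus strand: ggtcttgcttCCGGAAGtcgctttccg
Snrpg, chr6:86371385-86371411, plus strand: ggcgacgcaaCCGGAAGcgtggctctg

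Genes that share these letters differed widely in level, from 129 counts per kb in Sf3a2 to 1638 in Snrpe. In Sf3a3 the letters lie on the strand opposite to the gene, and in the other windows shown on the strand of the gene.

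Several values are uncertain because other loci share sequence with the gene. The authors kept uniquely placed reads, so a gene with a near-identical copy can lose reads. An annotated pseudogene with at least 95% identity to the coding sequence, over at least 81 bases (1 mate of a read pair) and at least 50% of its length, was found for 14 members (29.8%), against 6.33% of coding genes. They include 5 of 7 Sm genes, namely Snrpd1, Snrpd2, Snrpe, Snrpf and Snrpg, and neither Snrpb nor Snrpd3. The longest copy matched at 100% over 228 bases in Snrpg and over 309 bases in Lsm7. In Sf3b4 the identity was 99.3% over 1275 bases, and in U2af2 96.1% over 1430 bases. U2af1, Lsm5, Lsm6, Lsm12, Snrpa and Snrpc were the others. Without the genes that have a copy, the Sm ring is left with Snrpb and Snrpd3, its highest and lowest gene, whose midpoint of 1312 counts per kb says nothing of the stability of the median. The median level of the LSm ring was then 217 counts per kb, and that of U2AF 242, which is U2af1l4 alone.

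Exons of 13 members overlap those of another gene, in 11 cases on the opposite strand. The share of all genes with such an overlap was not computed, so these counts have nothing to be set against. In U2af1l4, 1086 exon bases are shared with Gm49396 on the same strand. On the opposite strand, Prpf31 shares 984 with Gm15927, Prpf39 599 with Fkbp3, Snrpf 567 with Ccdc38 and Snrpd3 232 with Gucd1. Sf3b3, the member with the highest mean count, shares 69 and 76 bases with the snoRNAs Snord111 and Gm22193 on its own strand. It also shares 188 with Cog4 on the opposite one. For 23 of the 47 members, among them Prpf8, Sf3b1 and Snrpb, neither a pseudogene copy nor an exon overlap was found. The search for copies did not include coding genes of similar sequence.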

How the data were processed

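RNA was depleted of ribosomal RNA and sequenced as pairs. The authors removed ribosomal reads, aligned the rest with STAR to mm10 with strain variants masked, kept unique alignments, removed duplicates with Picard and counted genes and transposable element subfamilies with TEtranscripts. The deposited signal is the mean over all 8 libraries of counts divided by size factors. The 5 other columns hold the authors' own fold changes, standard errors, test statistics and p-values and were not used. Depth per library is not analysed here.

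Each mean was divided by a length from GENCODE M21 (GRCm38), which may differ from the gene models counted; 98.8% of symbols matched. Copies were searched with BLAST 2.17.0. Scripts ran in Python 3.11.15. 1 member is not reported here by name, though the counts and medians include it. Every other member is named, and of each other list of genes the highest and lowest per kb. The members and lists were chosen with earlier results of these data known. The ribosomal list, motifs, GGAC, neighbour and overlap counts and gene pairs were chosen after the members' values were seen, and the definition of a copy was set after a first search with whole transcripts, which also returned repeats and neighbouring genes.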

Additional observations from a re-analysis of the deposited data

How the results depend on the processing

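With 1 pooled mean per gene, no library could be left out. No paired analysis was possible because the table holds no value per library. The levels depended on the length. Per kb of 1 representative transcript the median of the members was 1006, and by group 1953 (Sm ring), 1537 (LSm ring), 351 (other LSm), 1379 (U1), 1382 (U2), 439 (SF3a), 1496 (SF3b), 2992 (U2AF), 725 (tri-snRNP Prpf) and 450.4 (other Prpf). Per kb of coding sequence it was 2239, and by group, in the same order, 6612, 3099, 1006, 2213, 2969, 909.6, 2923, 4385, 1590.2 and 1099. The highest over the lowest level per kb of transcript was 15.5 (Sm ring), 12.2 (LSm ring), 10.5 (SF3a), 9.17 (SF3b) and 3.23 (tri-snRNP Prpf), and per kb of coding sequence 3.51, 4.44, 8.36, 4.86 and 3.36. Without members that have a near-identical copy the median level per kb of summed exons was 393 over all members, 1312 for the Sm ring (the midpoint of Snrpb and Snrpd3), 217 for the LSm ring, 216 for other LSm, 855 for SF3b and 242 for U2AF. The median percentile of the members by level was 86.9 against genes that reached a mean of 10, 89.9 against all genes and 82.1 against those that reached 100. The members held 0.727% of reads when transposable elements were added to the total. Their number was 47 at a minimum mean count of 1 or of 100. Copies other than annotated pseudogenes were not searched.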
